A study of Bos taurus with 3 samples.

Results

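The cytosolic ribosomal protein genes were examined in cultured cells of the bovine ovary. A gene was a member when its platform symbol began with RPL or RPS followed by a number, or was RPLP0, RPLP1, RPLP2, RPSA or FAU. The RPS6K kinases, and symbols whose ending after the gene number was P, P plus a number or L plus a number, were left out. This gave 66 of 9155 named genes, 40 of the large subunit and 26 of the small subunit, and all 66 were measured, since no filter on low values was applied. Where several probe sets carried a symbol, the one with the highest mean over the 3 arrays stood for the gene. Of 82 protein-coding symbols that fit the same rule in the current bovine gene table (RefSeq, assembly ARS-UCD2.0), 66 were measured. The other 16, among them RPL6, RPL15, RPLP1, RPS4X, RPS23 and RPS27A, were not analysed here.

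The cytosolic ribosome is built of a small subunit, which reads the mRNA, and a large subunit, which joins amino acids and feeds the growing chain into an exit tunnel. Each subunit contains 1 copy of most of its proteins, apart from the stalk, and cells keep the mRNAs of these proteins among their most abundant transcripts. Many of these mRNAs begin with a run of pyrimidines, the terminal oligopyrimidine tract, through which the TOR pathway controls their translation rather than their amount. Growing cells also need assembly factors in the nucleolus and RNA polymerases I and III, which make ribosomal RNA.

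The 3 arrays held RNA of 2 fetal cultures of Gonadal Ridge Epithelial-Like (GREL) cells and of 1 culture of adult ovarian fibroblasts, all from Bos taurus, and the labels name no genetic change or drug. The labels give 130 days of gestation for both GREL isolates and an adult age for the fibroblasts, and the methods of the study give a slightly younger age for 1 of them. GREL isolates were polygonal cells, described as clonally enriched, and the fibroblastic cells were grown from medullar stroma of 1 adult ovary. All were dispersed with collagenase and grown in DMEM/F12 with 5% fetal calf serum at 39°C, to 70% confluence per the labels. Cell type, fetal or adult age and the single fibroblast culture cannot be told apart in this design. A member's lower value in a culture could reflect fewer cells that express it or a smaller share of the RNA of each cell. Equal amounts of RNA were labelled and the arrays were quantile normalized, so values are relative to other genes and do not measure RNA per cell.

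Values were log2 of normalized array signal, deposited in steps of 0.1, so that the difference between 2 values may be off by up to 0.1. The median over all probe sets was 2.9 in the fibroblasts, 3.0 in isolate 1 and 2.9 in isolate 2. Of 8 epithelial markers, 7 were above the fibroblasts in both GREL isolates and 0 below. Their summed linear signal was 1534 in the fibroblasts, 5586 in isolate 1 and 6882 in isolate 2. KRT19, a keratin of simple epithelia, was at 7.1, 11.3 and 11.6 in the same order. All 7 stromal markers were below the fibroblasts in both isolates, with a summed signal of 10998, 6975 and 4001. The stromal receptor PDGFRA read 8.3 in fibroblasts against 6.1 and 5.5 in isolates 1 and 2, and a log2 array signal has no true zero. The 4 endothelial and the 4 blood markers read below the array median on every array, as did 4 of 5 granulosa cell markers, and the summed signal of these lists was at most 36. The 4 smooth muscle markers summed to 2538, 1943 and 2164, and 2 measured germ cell markers of 4 to 57, 8 and 12. Most of the germ cell sum in the fibroblasts was KIT, at 5.7, 1.5 and 2.7 in the same order. The other, POU5F1, read 2.4, 2.3 and 2.5, below the array median on every array. The part of any admixed cells in the ribosomal protein values was not tested.

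The ribosomal protein genes differed little between the cultures. Their levels lay near the top of the array scale, and the GREL mean minus the fibroblast value ran from -0.35 to 0.50 on the log2 scale over the 66 genes. The median difference was 0.15, or 1.11-fold, and the quartiles were 0.00 and 0.25. Over all 9155 named genes the median was 0.05 and the quartiles -0.30 and 0.45. All 66 members lay within 0.5 of the fibroblasts, and 63.2% of all named genes did. None of the 66 was over 1.5-fold higher or over 1.5-fold lower in both isolates, where 16.3% of named genes were over 1.5-fold higher and 11.0% over 1.5-fold lower.

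Within this narrow range most members read slightly higher in the GREL cells in the deposited values. In both isolates 43 of the 66 (65.2%) were above the fibroblasts, against a background of 41.6% of named genes, and 7 were below, against 33.5%. The remaining 16 were tied with the fibroblasts in at least 1 isolate or had the isolates on opposite sides. Isolate 1 alone was above the fibroblasts in 48 members and isolate 2 in 45. With the arrays centred on their medians, 32 members were above in both isolates, and the share of named genes was not recomputed. A limit of 0.1 was also used, chosen with the values in view, and the share of all named genes at it was not computed. With only differences over this limit counted, 24 members were higher in both isolates and 1, RPL3L, was lower. The direction of a single member is therefore often within the rounding.

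No member passed limma at an adjusted p under 0.05, where 0% of the 24016 probe sets passed in either direction. The adjusted p over all probe sets ran from 0.184 to 1 among the members. Of the 66, 7 were higher and 0 lower at an unadjusted p under 0.05 (2354 and 2666 of all probe sets). They were RPL10A, RPL14, RPL17, RPL22, RPL38, RPS4Y1 and RPS15, and in all 7 both isolates carry an identical rounded value, so their spread is understated. The spread in this fit came from 2 GREL cultures with 1 residual degree of freedom, and the fibroblasts were assumed to vary like them.

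**Figure D1:**
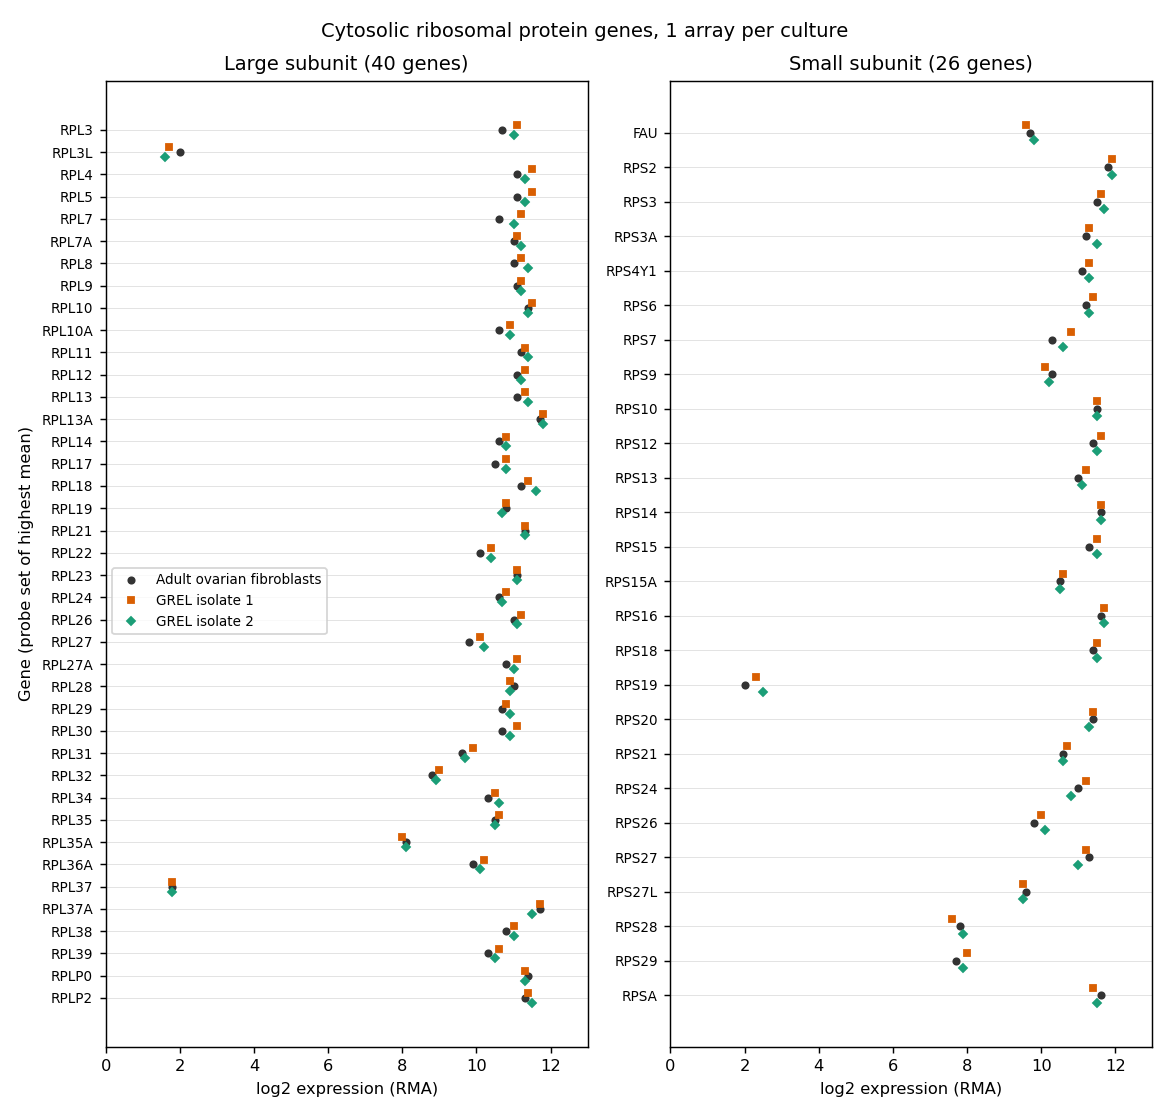
Log2 expression (horizontal axis) of each of the 66 cytosolic ribosomal protein genes (rows, large subunit left and small subunit right) for 1 array per culture, where circles stand for fibroblasts, squares for isolate 1 and diamonds for isolate 2, with the symbols of a row offset vertically for legibility. Apart from RPL3L, RPL37 and RPS19, the rows lie between 7.6 and 11.9 and the 3 cultures of a row nearly coincide.

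The level of the members was high in all 3 cultures. The median over the members was 11.00 in the fibroblasts, 11.10 in isolate 1 and 11.00 in isolate 2, where the brightest probe sets of the arrays read 12.3, 12.2 and 12.3. In the fibroblasts 57 of the 66, and in each isolate 58, were among the brightest 1% of probe sets. Signals of different probe sets depend on their probes and do not rank transcripts. RPS2, a small subunit protein at the mRNA entry, was at 11.8 in fibroblasts against 11.9 in each isolate. RPL13A, which also takes part in interferon-gamma-dependent translational silencing, was at 11.7 in fibroblasts against 11.8 in each isolate. RPS16 was at 11.6 in fibroblasts against 11.7 in each isolate. In each of these genes the isolates gave the same value, and it was 0.1 above the fibroblasts.

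The members held 13.5% of the summed linear signal of the named genes in the fibroblasts, 14.4% in GREL isolate 1 and 13.8% in isolate 2. Isolate 1 was 0.891 and isolate 2 0.261 percentage points above the fibroblasts, so the isolates differed from each other about as much as from the fibroblasts. With the probe sets of a gene averaged, the share was 13.8% in the fibroblasts, 14.4% in isolate 1 and 13.8% in isolate 2.

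The members were also set beside other bright genes. Of 89 other named genes with a mean log2 value of at least 10, 43.8% were above and 31.5% below the fibroblasts in both isolates, and 15.7% were over 1.5-fold higher and 12.4% over 1.5-fold lower. Of the 55 members in the same range 38 were above (69.1%), 5 were below and 0 were over 1.5-fold apart in either direction. The median of the absolute difference was 0.45 in the 89 other genes and 0.15 in the 55 members, but the 89 were dimmer, with a median fibroblast value of 10.50 against 11.10. HSPA8, a chaperone of this range, was at 9.6 in fibroblasts against 10.7 and 11.0 in isolates 1 and 2. TIMP1, an inhibitor of matrix proteases, was at 12.3 in fibroblasts against 9.8 and 10.1 in isolates 1 and 2, and both genes were picked after their values were seen. Among 17 other genes with a mean of at least 11, a level added after the data were seen, 2 were over 1.5-fold higher and 0 lower. At that level the median of the absolute difference was 0.20 in the 17 other genes and 0.15 in 33 members, so most of the distance seen at the lower level was gone. No test compared the members with these genes.

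**Figure D2:**
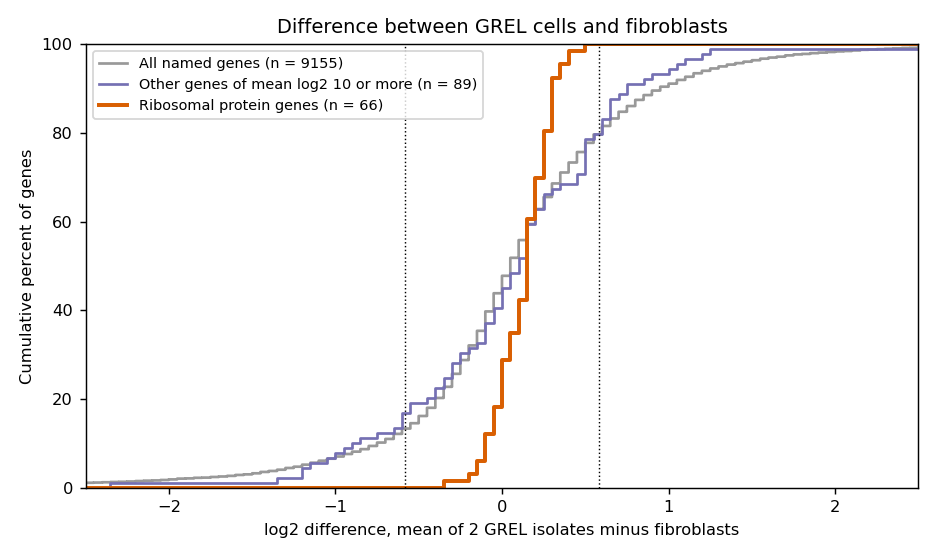
Cumulative percent of genes (vertical axis) against GREL mean minus fibroblast value in log2 units (horizontal axis, cropped at -2.5 and 2.5) for the 66 ribosomal protein genes, the 89 other genes of mean log2 value 10 or more and all 9155 named genes. Dotted lines mark 1.5-fold, and the curve of the ribosomal protein genes rises wholly between them.

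The large subunit held 40 of the 66 members and most of those that read higher. Of its 40 genes 29 were above the fibroblasts in both isolates (72.5%) and 3 were below, with a median difference of 0.15. Of the 26 genes of the small subunit 14 were above (53.8%) and 4 were below, with a median difference of 0.10. The difference between the subunits was not tested, and 0.05 is less than the rounding step.

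The large subunit genes with the widest differences, picked after their values were seen, reached at most 0.6 in 1 isolate. RPL7, an early-binding protein of the large subunit, was at 10.6 in the fibroblasts, 11.2 in isolate 1 and 11.0 in isolate 2. The difference was 0.50 with a standard error of 0.14 and a limma adjusted p of 0.286. It was the largest of the 66, and no other member exceeded a difference of 0.32 in both isolates. RPL3, which helps shape the peptidyl transferase centre, was at 10.7 in fibroblasts against 11.1 and 11.0 in isolates 1 and 2 with a difference of 0.35, a standard error of 0.0748 and a limma adjusted p of 0.261. RPL27 was at 9.8 in fibroblasts against 10.1 and 10.2 in isolates 1 and 2, with the same difference of 0.35. In these 3 genes both isolates were above the fibroblasts by more than the gap between the isolates. Picking genes for a wide difference favours this, so it is no separate result. The GREL mean was above by more than the gap in 3270 of all 9155 named genes.

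RPL5 and RPL11, which carry the 5S ribosomal RNA into the large subunit and, when unassembled, bind the p53 regulator MDM2, were both slightly above the fibroblasts. RPL5 was at 11.1 in the fibroblasts, 11.5 in isolate 1 and 11.3 in isolate 2. RPL11 was at 11.2 in fibroblasts against 11.3 and 11.4 in isolates 1 and 2. RPL10, which joins the large subunit late in the cytoplasm, was at 11.4 in fibroblasts against 11.5 and 11.4 in isolates 1 and 2, so isolate 2 was level with the fibroblasts. Its other probe set, of nearly the same brightness, gave 11.4 in fibroblasts, 11.3 in isolate 1 and 11.2 in isolate 2. The direction of RPL10 therefore rests on the probe set used.

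The exit tunnel is lined in part by RPL4 and RPL39, and RPL17, RPL19, RPL22, RPL26, RPL31 and RPL35 lie around its opening. Of these genes, grouped after their values were seen, all but RPL19 and RPL35 were above the fibroblasts in both isolates, a share near the 72.5% of the whole large subunit. RPL4 was at 11.1 in the fibroblasts, 11.5 in isolate 1 and 11.3 in isolate 2. RPL39 was at 10.3 in fibroblasts against 10.6 and 10.5 in isolates 1 and 2. RPL17 was at 10.5 in the fibroblasts and RPL22 at 10.1, and both isolates were 0.30 higher in each gene. RPL19 was the exception on the low side, at 10.8 in the fibroblasts and in isolate 1 and at 10.7 in isolate 2. RPL35 was at 10.5 in the fibroblasts and isolate 2 and at 10.6 in isolate 1.

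The stalk of the large subunit, which recruits the GTPase factors of translation, is built on RPLP0. RPLP0 was 1 of the 7 members below the fibroblasts in both isolates, at 11.4 in fibroblasts against 11.3 in each isolate, a difference equal to the rounding step. Another of its probe sets read 10.7 in all 3 cultures. RPLP2, which is carried by RPLP0, was at 11.3 in fibroblasts against 11.4 and 11.5 in isolates 1 and 2.

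In the small subunit RPS7 differed most among the bright members, and it and RPS9 are given for their values. RPS7, which can also bind MDM2, was at 10.3 in the fibroblasts, 10.8 in isolate 1 and 10.6 in isolate 2 with a difference of 0.40, a standard error of 0.142 and a limma adjusted p of 0.328. RPS6, the substrate of the S6 kinases, was at 11.2 in fibroblasts against 11.4 and 11.3 in isolates 1 and 2. The probe set named RPS4Y1, a gene of the RPS4 family, was at 11.1 in fibroblasts against 11.3 in each isolate, and signal from the similar RPS4X could not be told apart from its own. RPSA, which is also known as the laminin receptor, was below the fibroblasts in both isolates, at 11.6 in fibroblasts against 11.4 and 11.5 in isolates 1 and 2. RPS9 was below as well, at 10.3 in fibroblasts against 10.1 and 10.2 in isolates 1 and 2.

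RPS10 and RPS14 read the same on all 3 arrays, at 11.5 and 11.6, as did RPL21 at 11.3, RPL23 at 11.1 and RPL37 at 1.8. FAU, which encodes a ubiquitin-like protein fused to the ribosomal protein eS30, was at 9.7 in the fibroblasts, 9.6 in isolate 1 and 9.8 in isolate 2. FAU, RPS24 and RPS28 were the 3 members in which the fibroblasts lay between the isolates.

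The isolates differed little from each other, and in most members less than from the fibroblasts. The GREL mean was above the fibroblasts by more than the gap between the isolates in 41 members, and below by more in 6. Of all 9155 named genes, 3270 were above and 2633 below in this way. Most named genes thus also differed less between the isolates than from the fibroblasts. The median of the absolute difference to the fibroblasts was 0.15, close to the rounding step. The gap between the isolates was at most 0.1 in 51 of the 66 members, 0.2 in 13 and larger in 2. RPS24 had the largest gap, at 11.2 in isolate 1 and 10.8 in isolate 2 with 11.0 in the fibroblasts. RPS28 was at 7.6 in isolate 1 and 7.9 in isolate 2 with 7.8 in the fibroblasts. Isolate 1 was the higher in 28 members and isolate 2 in 18, and 20 were tied. The median of the absolute gap was 0.10 in the members and 0.20 over all named genes.

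The paralogs RPS27L and RPL3L were below the fibroblasts in both isolates. RPS27L, a p53-induced paralog of RPS27, was at 9.6 in fibroblasts against 9.5 in each isolate. RPS27 itself was at 11.3 in the fibroblasts, 11.2 in isolate 1 and 11.0 in isolate 2. RPL3L, a paralog of RPL3 used in striated muscle, was at 2.0 in fibroblasts against 1.7 and 1.6 in isolates 1 and 2, below the array median in each culture, and its difference of -0.35 is that of a dim probe set. RPL36A was at 9.9 in fibroblasts against 10.2 and 10.1 in isolates 1 and 2. Its paralog RPL36AL, and RPL10L, were not analysed here.

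RPL37 and RPS19 are core proteins of the ribosome, and RPS19 is the gene most often mutated in Diamond-Blackfan anaemia, yet their probe sets read below the median of the array. RPL37 was at 1.8 in every culture. RPS19 was at 2.0 in fibroblasts against 2.3 and 2.5 in isolates 1 and 2, and its second probe set was at 1.4, 1.3 and 1.4 in the same order. These values do not measure how much of the transcripts was present. Between these and the bright genes, 8 members had means from 7.5 to 10: FAU, RPL31, RPL32, RPL35A, RPS26, RPS27L, RPS28 and RPS29. Of the 11 members with a mean under 10, 5 were above and 2 below the fibroblasts in both isolates.

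Of the 66 genes, 17 had more than 1 probe set, 91 probe sets in all. Of the 25 further probe sets, 23 had a mean log2 value under 10. The median of the absolute difference was 0.20 in the 25 and 0.15 in the 66 of highest mean, closer than the rounding step. Over 1.5-fold in both isolates, 4 of the 25 were higher (RPL21, RPL3, RPS15A and RPL7) and 3 lower (RPL24, RPS12 and RPS27L). These counts are near the shares of all probe sets, 11.4% higher and 9.27% lower. A few single probe sets differed widely. The second probe set of RPL24, a late-joining protein that bridges the subunits, was at 6.6 in the fibroblasts, 3.7 in isolate 1 and 4.4 in isolate 2, or 0.13-fold and 0.22-fold (adjusted p = 0.261 in limma). Its bright probe set was at 10.6, 10.8 and 10.7 in the same order. A dim probe set of RPS12 was at 6.6 in fibroblasts against 5.5 and 4.9 in isolates 1 and 2, while the bright one was at 11.4, 11.6 and 11.5. That of RPL21 was at 4.3 in fibroblasts against 5.3 and 5.9 in isolates 1 and 2, while the bright one read 11.3 throughout. A dim probe set of RPS4Y1 set the isolates apart, at 7.4 in isolate 1 and 6.5 in isolate 2 with 7.7 in the fibroblasts. In RPL24, RPS12 and RPL21 the dim and the bright probe set thus gave different pictures, and which transcripts the dim ones read was not tested.

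**Figure D3:**
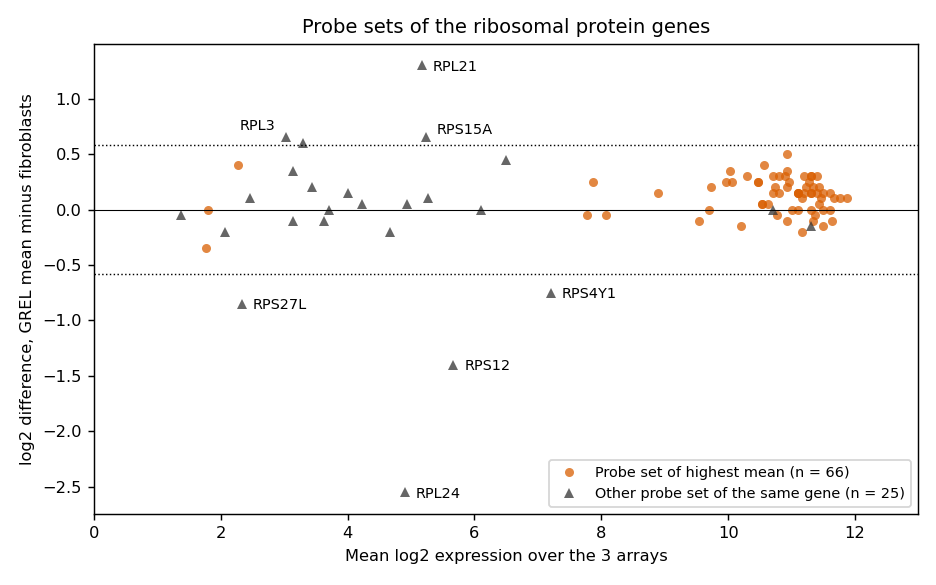
GREL mean minus fibroblast value in log2 units (vertical axis) against the mean log2 value over the 3 arrays (horizontal axis) for the 91 probe sets of the 66 ribosomal protein genes, the 66 of highest mean as circles and the 25 others as triangles. Dotted lines mark 1.5-fold, and only triangles lie beyond them, down to -2.55 for RPL24 and up to 1.30 for RPL21.

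Control transcripts also differed between the arrays. Of 18 probe sets for hybridization spikes, bacterial and phage transcripts added in fixed amounts, 12 were below and 2 above the fibroblasts in both isolates, with a median difference of -0.15 and a range from -0.45 to 0.20. Of 24 probe sets for poly-A spikes, which are carried through labelling, 4 were below and 2 above, with differences from -0.70 to 0.35. Their median was -0.20 for isolate 1 and 0.20 for isolate 2. The 3' minus 5' signal of GAPDH, a measure of RNA integrity on this array, was 0.30 in the fibroblasts, 0.40 in isolate 1 and 0.60 in isolate 2. The same measure for the eIF4E transcript was 3.40, 2.80 and 3.60. The part of labelling and RNA quality in the ribosomal protein values was not tested.

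Many genes that make and serve the ribosome differed more than its own proteins. Of 71 measured ribosome assembly factors 65 (91.5%) were above the fibroblasts in both isolates and 3 below, with a median difference of 0.95. Over 1.5-fold in both isolates 45 (63.4%) were higher and 2 (2.82%) lower. For this and the lists below, 41.6% of all named genes were above and 33.5% below the fibroblasts in both isolates. Over 1.5-fold 16.3% of them were higher and 11.0% lower. NOP56, a core protein of the box C/D particles that guide methylation of ribosomal RNA, was at 6.2 in fibroblasts against 8.0 and 8.6 in isolates 1 and 2. FBL, the methyltransferase of these particles, was at 6.7 in fibroblasts against 8.4 and 9.0 in isolates 1 and 2. DDX52, an RNA helicase, and HEATR1, which is needed for transcription and processing of ribosomal RNA, were the lowest of the list. DDX52 was at 5.4 in fibroblasts against 4.4 and 4.6 in isolates 1 and 2. HEATR1 was at 6.3 in fibroblasts against 5.6 and 5.3 in isolates 1 and 2. No assembly factor passed limma (lowest adjusted p = 0.182).

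Of 67 mitochondrial ribosomal proteins, which form the separate ribosome of the mitochondrion, 58 (86.6%) were above the fibroblasts in both isolates and 4 below. The median difference was 0.65. Over 1.5-fold 37 (55.2%) were higher and 1 lower. MRPL15 was at 3.7 in fibroblasts against 5.6 and 5.7 in isolates 1 and 2. MRPL48 was at 4.3 in fibroblasts against 5.9 and 6.2 in isolates 1 and 2. At the other end MRPL45 was at 7.6 in fibroblasts against 7.0 in each isolate.

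Of 31 initiation factors 24 (77.4%) were above and 2 below, with a median difference of 0.55. Over 1.5-fold 11 (35.5%) were higher and 0 lower. EIF3B, a scaffold subunit of the eIF3 complex, was at 6.5 in fibroblasts against 7.6 and 8.3 in isolates 1 and 2. EIF4G3, a paralog of the scaffold EIF4G1, was at 7.7 in fibroblasts against 7.2 and 6.5 in isolates 1 and 2. Of 24 measured subunits and factors of RNA polymerases I and III 13 (54.2%) were above and 2 below, with a median difference of 0.38. Over 1.5-fold 9 (37.5%) were higher and 1 lower. POLR1G, a subunit of RNA polymerase I, was at 2.5 in fibroblasts against 3.6 and 4.1 in isolates 1 and 2. POLR3GL, a subunit of RNA polymerase III, was the 1 lower gene, at 4.9 in fibroblasts against 3.6 in each isolate.

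Of 15 genes of other mRNAs with the terminal oligopyrimidine tract 7 (46.7%) were above and 2 (13.3%) below the fibroblasts in both isolates, with a median difference of 0.10. Over 1.5-fold 2 (13.3%) were higher and 1 lower. The shares above and over 1.5-fold higher were near those of all named genes, 41.6% and 16.3%. NACA, a chaperone subunit that binds nascent chains at the ribosome, was at 9.4 in fibroblasts against 10.2 and 10.1 in isolates 1 and 2. CCNI was the lowest of the list, at 9.0 in fibroblasts against 8.2 and 7.7 in isolates 1 and 2. Of 13 elongation and termination factors, some of them in the same list, 7 (53.8%) were above and 1 below, with a median of 0.25. PELO, a factor that rescues stalled ribosomes, was the 1 below, at 6.6 in fibroblasts against 6.2 in each isolate. The elongation factor EEF2 was at 11.0 in fibroblasts against 11.0 and 10.9 in isolates 1 and 2. ETF1, the release factor, was at 5.4 in fibroblasts against 6.5 and 6.8 in isolates 1 and 2.

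Of 19 S6 kinases and genes of TOR signalling 8 (42.1%) were above and 6 (31.6%) below, near the 41.6% and 33.5% of all named genes, with a median difference of 0.05. RPS6KA1, a kinase of ribosomal protein S6, was at 4.0 in fibroblasts against 5.0 and 5.8 in isolates 1 and 2. MXI1, a member of the MYC network, was the lowest of the list, at 6.7 in fibroblasts against 5.4 and 4.7 in isolates 1 and 2. EIF4EBP1, which restrains cap-dependent initiation, was at 6.5 in fibroblasts against 5.7 and 5.6 in isolates 1 and 2. Of 7 listed relatives outside the rule 5 were measured. All 5 were above the fibroblasts in both isolates, and 3 (60%) were over 1.5-fold higher. RSL1D1, a nucleolar protein with a ribosomal L1 domain, was the highest, at 6.4 in fibroblasts against 7.8 and 8.0 in isolates 1 and 2. RPL26L1, a paralog of RPL26, was at 7.1 in fibroblasts against 7.7 in each isolate. RPL7L1 was at 7.0 in fibroblasts against 7.5 and 7.8 in isolates 1 and 2. RPL15P, listed as a pseudogene, was at 10.9 in the fibroblasts, 11.2 in isolate 1 and 10.9 in isolate 2. Most of these other genes were dimmer than the ribosomal protein genes, and the difference between lists was not tested.

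**Figure D4:**
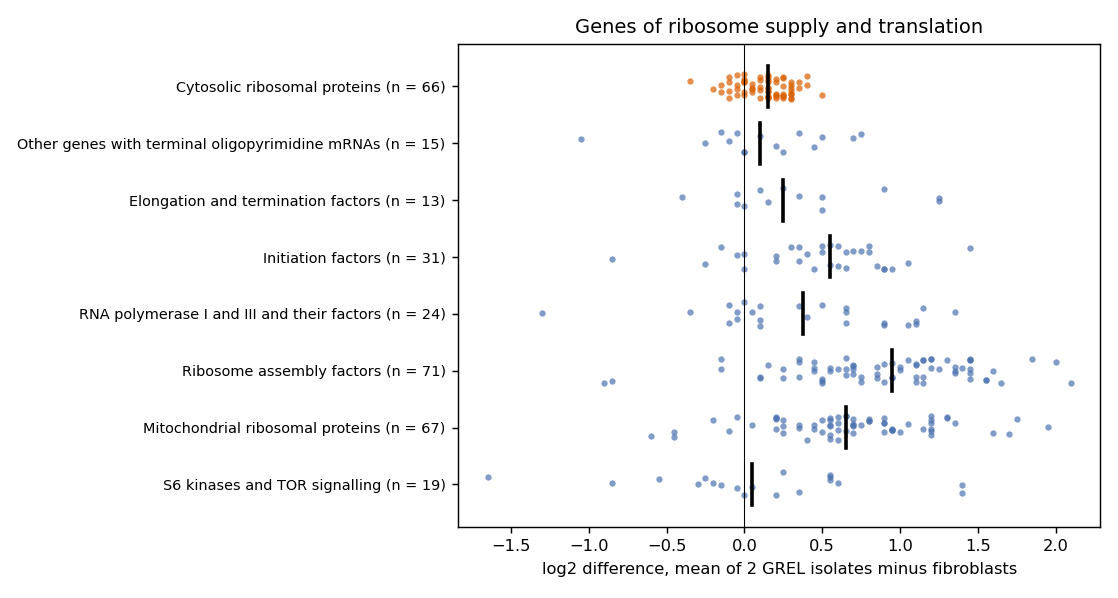
GREL mean minus fibroblast value in log2 units (horizontal axis), with a point, jittered vertically, for every measured gene of the cytosolic ribosomal proteins and 7 lists of related genes, where brackets give the gene count and a vertical bar the median. The ribosomal proteins form the narrowest cloud, from -0.35 to 0.50, and the median of the ribosome assembly factors is 0.95.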

How the data were processed

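RNA of 2 GREL isolates and 1 fibroblast culture was hybridized to Affymetrix GeneChip Bovine Genome Arrays, a 3′ expression array, 1 per culture. The authors deposited log2 values after RMA background subtraction and quantile normalization (Partek 6.5 in the submitters' processing notes), rounded to steps of 0.1, without detection calls. Every value column was matched to a sample.

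Of 24128 probe sets, 112 controls were left out and 24016 tested. The platform annotation, of an older date, gave 13292 of them 1 symbol and 86 several, and 10638 were unnamed here. Through gene identifiers 13263 matched the current gene table and 0 symbols changed. No build or probe sequence is given in the sources used here, so coordinates and sequences are not shown.

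Arrays were compared with limma 3.58.1 in R 4.3.3 (lmFit, eBayes, Benjamini-Hochberg over all probe sets). Its estimates of planted fold changes were checked on simulated data, which does not show how often a real change would be called. A permutation of 2 arrays against 1 cannot give a p below 0.333. Counts over 1.5-fold, chosen because bright probe sets differ little, had to hold in both isolates. Summaries were made in Python 3.11.15 (pandas 2.3.3, numpy 2.4.6). Array number limits the precision.

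The members and gene lists were chosen with earlier results of these data known. Named are the members of widest difference, highest and lowest level and largest gap between isolates, the stalk, 5S and paralog members, and genes among the highest and lowest 2 of each list; members named for their role or difference beyond these were chosen after their values were seen. Alternatives were the methods' ANOVA, an intensity trend, a robust prior, values jittered inside the rounding interval (20 draws), removal of dim probe sets, a further quantile normalization, centring, other probe set rules, folds and backgrounds, and leaving out either isolate.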

Additional observations from a re-analysis of the deposited data

How the results depend on the processing

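No member was called under any alternative, but most of these settings could not single out the members. The methods' ANOVA, the intensity trend, removal of dim probe sets, a further quantile normalization and centring called no probe set at all. A robust prior and values spread within the rounding step called some probe sets, none of them a member's. In 20 members the isolates round to the same value, and the ANOVA gave these no p. With every probe set counted on its own, 14 were below the fibroblasts in both isolates in place of 7, and over 1.5-fold 4 were higher and 3 lower. With the probe sets of a gene averaged, 1 member (RPL24) was over 1.5-fold lower. At a lower fold (0.32 in log2) 1 member, RPL7, was higher. With differences over 0.1 only, added after the data were seen and without a share over all named genes, 24 were above and 1 below. Without either isolate in turn, 10 to 11 members were below, 0 to 1 over 1.5-fold higher (RPL7 in isolate 1 alone) and the median difference was 0.10 to 0.15. Quantile normalization again, or arrays centred on their medians, gave a median of 0.10 in place of 0.15 and 39 or 32 members above in place of 43. Over 5 settings (3 scalings and either isolate left out) the difference of 2 members took the other sign, RPL10 (-0.05) and RPS28 (0.10). Members with a difference of 0.00 as reported could not enter this count. Among them, RPS24 was at -0.20 without isolate 1 and at 0.20 without isolate 2. For 3 of the related lists the count over 1.5-fold higher was also recomputed, and ran from 37 to 53 for assembly factors (45 as reported), 28 to 52 for mitochondrial ribosomal proteins (37) and 8 to 16 for initiation factors (11). The other lists were not recomputed. No paired analysis was possible because the GREL isolates came from fetuses and the fibroblasts from an adult ovary.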
